A study of Mus musculus with 18 samples.

Results

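The 10 genes described here are used to recognise haematopoietic stem cells or are needed to keep them: the transcription regulators Mecom, Hlf and Prdm16, and the surface and signalling genes Procr, Fgd5, Esam, Slamf1, Cd34, Cd27 and Ly6a. They were taken by gene symbol, and all 10 were found among the 41079 genes listed in both count tables, of which 28108 had 1 or more fragments in the series. Total RNA was sequenced from mouse bone marrow cells selected for Kit, the receptor of stem cell factor that marks immature blood cells. The cells were wild type (WT) or carried AE9a, a shorter spliced form of AML1-ETO, the leukaemia fusion of RUNX1 with RUNX1T1, and cells of each genotype had received DMSO, the usual solvent control, or the compounds C16 or RE. This gave 6 groups of 3 libraries (WT DMSO, WT C16, WT RE, AE9a DMSO, AE9a C16 and AE9a RE) and 18 libraries in all. The series text speaks of inhibiting WDR5 and MLL1, but neither compound's target, dose or duration is given in the labels, nor how AE9a was brought into the cells. Separate animals are not named for the replicates either, so p-values below measure only the spread between these libraries, which may be technical.

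Haematopoietic stem cells renew themselves and give rise to all blood lineages, and they are rare among Kit-selected marrow cells, most of which are progenitors. Their state rests on transcription regulators that are switched down as cells commit, while surface proteins such as the endothelial protein C receptor (Procr) and SLAM family member 1 (Slamf1, CD150) are used to sort them. MLL1 is a histone methyltransferase and WDR5 a subunit of its complex, both known for keeping genes of this kind active.

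Library totals ran from 16053727 to 27207748 fragments, so that 3 fragments of a gene, taken as the limit of detection, came to between 0.11 and 0.187 CPM (counts scaled to the library total). These limits cover counting error only. Runx1t1, part of the fusion, stood at 34.5 to 46.8 CPM in the AE9a DMSO libraries and at 34.5 to 43.2 CPM in the AE9a RE libraries, against 0 to 0.402 CPM in the 9 WT libraries. In the AE9a C16 libraries it stood at 2.35, 4.06 and 0.205 CPM, so the library labelled AE9a C16 replicate 3 lay within the WT range. That library also stood apart over all tested genes, at a root mean square log2 difference of 0.465 and 0.487 from the other AE9a C16 libraries, which lay 0.213 from each other. WT replicate 2 stood apart from WT replicates 1 and 3: under C16 it lay 0.910 and 0.958 from them, while they lay 0.244 from each other, and it lay 0.510 to 0.526 from the AE9a C16 libraries. Values without these libraries are given beside the results they bear on most. Kit, the gene used for selection, was present in all libraries, at 60.8 to 220.8 CPM in WT cells and at 214.9 to 1551 CPM in AE9a cells.

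Mecom, Hlf and Cd27 were lowered by RE in AE9a cells, and the 250 bases upstream of their start sites are shown here because these genes moved together. They are RefSeq windows on GRCm38.p6, a different build from that of the gene positions below, read 5′ to 3′ on the gene's strand. Hlf lies at chr11:90390918-90391167 on the minus strand, Mecom has a window for each of its 2 listed start sites at chr3:30509760-30510009 and chr3:30013205-30013454, both on the minus strand, and Cd27 lies at chr6:125237028-125237277 on the minus strand. Capitals mark the ETS motif.
Hlf: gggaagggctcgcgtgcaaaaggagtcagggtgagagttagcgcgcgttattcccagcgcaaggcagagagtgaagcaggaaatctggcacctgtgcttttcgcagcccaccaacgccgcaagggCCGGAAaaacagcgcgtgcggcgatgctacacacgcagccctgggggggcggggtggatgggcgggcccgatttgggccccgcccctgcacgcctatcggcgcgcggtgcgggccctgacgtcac
Mecom, first start site: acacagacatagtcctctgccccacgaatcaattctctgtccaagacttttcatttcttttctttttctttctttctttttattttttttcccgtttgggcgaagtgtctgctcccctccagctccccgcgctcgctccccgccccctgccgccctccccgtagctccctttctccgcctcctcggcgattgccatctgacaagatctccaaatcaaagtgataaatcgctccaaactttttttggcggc
Mecom, second start site: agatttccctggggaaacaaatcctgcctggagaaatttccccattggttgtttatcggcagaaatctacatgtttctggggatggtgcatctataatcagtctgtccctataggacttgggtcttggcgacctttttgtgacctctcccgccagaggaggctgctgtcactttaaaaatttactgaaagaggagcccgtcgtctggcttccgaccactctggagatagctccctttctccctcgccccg
Cd27: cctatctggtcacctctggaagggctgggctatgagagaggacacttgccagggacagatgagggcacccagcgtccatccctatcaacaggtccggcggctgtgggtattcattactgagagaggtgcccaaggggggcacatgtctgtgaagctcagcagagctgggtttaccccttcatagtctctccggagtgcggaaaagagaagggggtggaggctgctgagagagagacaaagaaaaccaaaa
On both strands, 3 motifs were searched: TGTGGT, bound by RUNX factors, AGATAA, bound by GATA factors, and CCGGAA, bound by ETS factors. RefSeq windows were given for 8 of the 10 genes (9 windows), and not for Esam and Ly6a. The Hlf window was the only one of the 9 to hold an ETS motif, with its first base 125 bases before the start (position -125), and 0 of the 9 held a RUNX or GATA motif, so no matches overlapped. Of 32851 windows of the same length in the mouse set, 12% held the ETS motif, 14% the RUNX motif and 9.99% the GATA motif. A match says only that these letters stand in the window.

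Compared per kilobase of exon, the 10 genes covered a wide range of levels. In WT DMSO cells Cd34 stood highest at 41.2 ± 5.50 CPM per kilobase (SD, n = 3), followed by Ly6a at 27.9 ± 11, Cd27 at 8.11 ± 3.08, Esam at 5.08 ± 3.85 and Procr at 5.03 ± 1.87. The transcription regulators were scarcer, at 2.05 ± 0.406 CPM per kilobase for Hlf, 0.527 ± 0.163 for Prdm16 and 0.436 ± 0.234 for Mecom, with Slamf1 at 2.09 ± 1.73 and Fgd5 lowest at 0.271 ± 0.150. In AE9a DMSO cells the order began with Ly6a at 111.9 ± 41.8 CPM per kilobase and Cd34 at 28.1 ± 2.56, and ended with Mecom at 0.144 ± 0.0423 and Fgd5 at 0.140 ± 0.00471. Between the highest and the lowest of the 6 group means, Slamf1 differed 148-fold, Esam 36.9-fold, Mecom 13.3-fold and Ly6a 9.69-fold, whereas Prdm16 differed 2.65-fold and Cd34 2.27-fold. The first 3 folds are imprecise, since their lowest means rest on 18, 45 and 20 fragments in all. The highest Slamf1 and Esam means, those of WT C16, also include a replicate 2 library at 0.146 and 0.878 CPM. In bulk RNA, fewer cells of a type and less of a transcript per cell cannot be told apart.

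**Figure D1:**
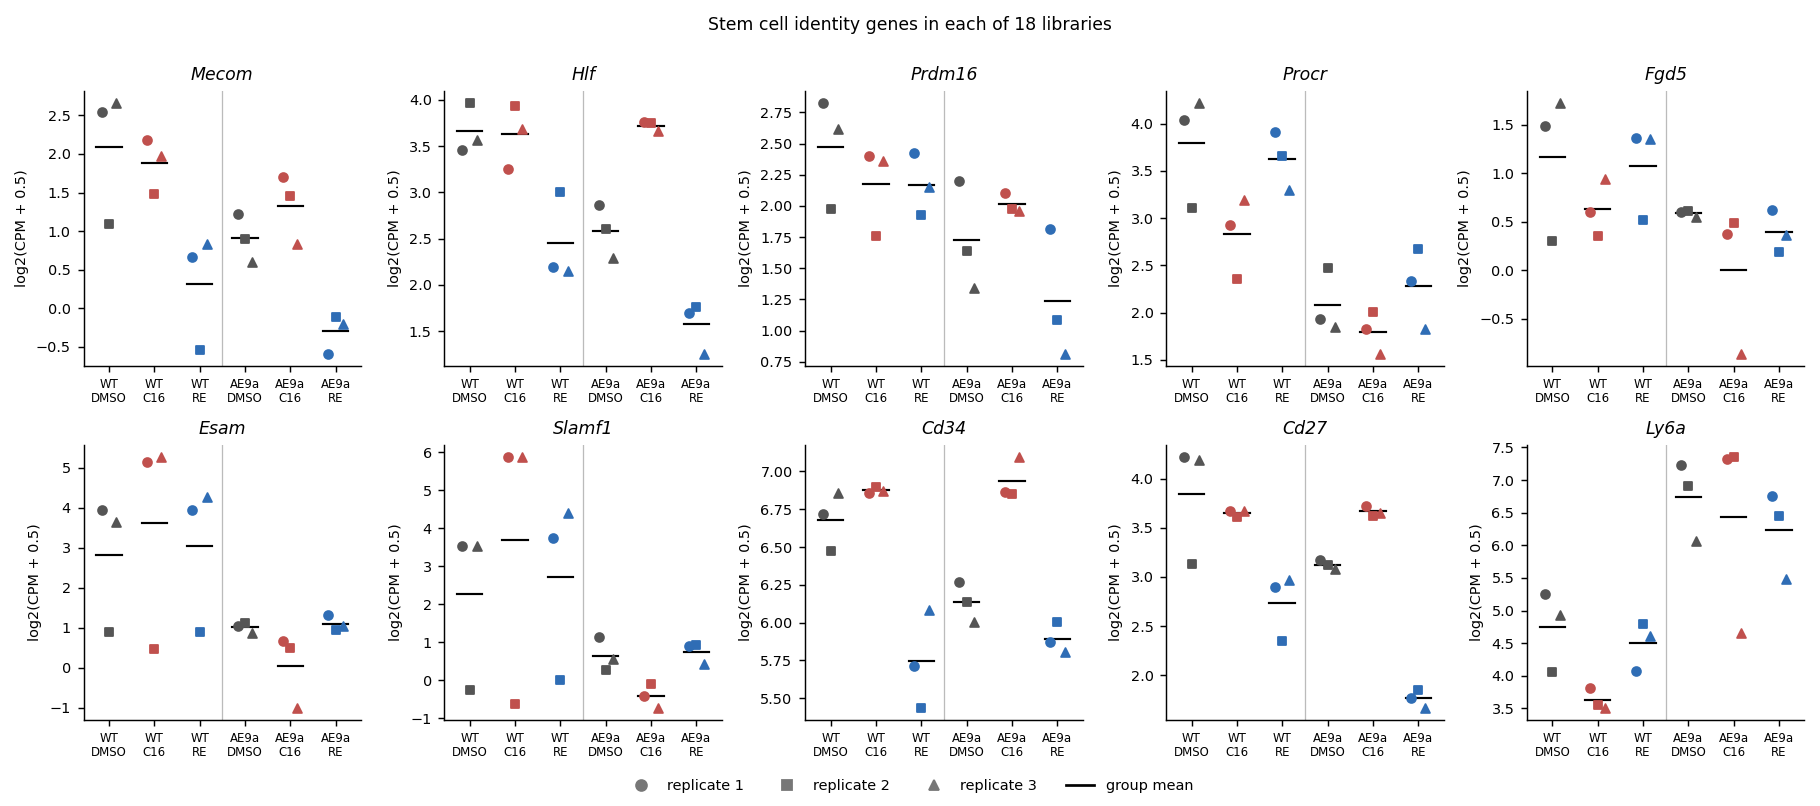
Level of each of the 10 genes on the log2(CPM + 0.5) scale (vertical axes, each with its own range) in the 6 groups (horizontal axes), with 1 symbol per library, shaped by replicate number, and a bar at the group mean. Esam and Slamf1 are low in the WT replicate 2 library of each treatment, and Mecom, Hlf and Cd27 are lowest in AE9a RE cells by group mean.

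The first question was what each compound did to these genes in AE9a cells. RE lowered the transcription regulators Mecom and Hlf and the receptor gene Cd27 to between 0.244 and 0.466 of their DMSO level. C16 raised Hlf, Cd34 and Cd27 by 1.52-fold to 2.33-fold and lowered Slamf1 to 0.261 of its DMSO level. Both compounds were set against the same 3 AE9a DMSO libraries, so their changes are given side by side.

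Mecom encodes EVI1, a zinc finger transcription factor that stem cells need for self-renewal, and lies at chr3:30005445-30563937 on the minus strand (GRCm39, as are all gene positions here). Its count sums transcripts from both of its start sites, which cannot be separated. Mecom stood at 1.84, 1.36 and 1.02 CPM in the AE9a DMSO libraries, at 2.75, 2.25 and 1.28 CPM under C16, and at 0.165, 0.426 and 0.368 CPM under RE. All RE libraries lay below all DMSO libraries, while those of C16 and DMSO overlapped. RE lowered Mecom, with a log2 change of -2.04 ± 0.44 (SE; edgeR adjusted p = 0.00903), on a total of 20 fragments in the RE libraries against 93 in the DMSO libraries. Under C16 the log2 change was 0.61 ± 0.33 (edgeR adjusted p = 0.128), or 0.86 ± 0.28 (edgeR adjusted p = 0.0222) without the library labelled AE9a C16 replicate 3.

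Hlf encodes a PAR-type bZIP transcription factor whose expression among blood cells is centred on stem cells, and lies at chr11:90227361-90281745 on the minus strand. It stood at 6.80, 5.59 and 4.38 CPM under DMSO, at 13, 12.9 and 12.2 CPM under C16, and at 2.75, 2.90 and 1.89 CPM under RE. The AE9a groups did not overlap, with C16 highest and RE lowest. The log2 change was 1.22 ± 0.17 for C16 (edgeR adjusted p = 1.77e-04) and -1.10 ± 0.19 for RE (edgeR adjusted p = 0.00377). Prdm16, a zinc finger regulator related to Mecom that supports stem cell maintenance (chr4:154400579-154721851, minus strand), stood at 4.09, 2.61 and 2.04 CPM under DMSO, at 3.80, 3.43 and 3.39 under C16, and at 3.02, 1.62 and 1.26 under RE. Its libraries overlapped between DMSO and either compound. The log2 change was 0.32 ± 0.31 for C16 (edgeR adjusted p = 0.384) and -0.53 ± 0.33 for RE (edgeR adjusted p = 0.264).

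Cd27 is a receptor of the TNF receptor family present on many stem and progenitor cells (chr6:125209583-125214014, minus strand). It stood at 8.49, 8.20 and 7.94 CPM under DMSO, at 12.7, 11.8 and 12.1 CPM under C16, and at 2.91, 3.11 and 2.68 CPM under RE. The 3 groups were fully separate. The log2 change was 0.61 ± 0.09 for C16 (edgeR adjusted p = 1.95e-04) and -1.45 ± 0.10 for RE (edgeR adjusted p = 1.74e-04). Its exons share 11 bases with Mir8113, which had 16 fragments over the 18 libraries against 3345 for Cd27.

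Cd34 encodes a sialomucin carried by progenitors and by part of the stem cell pool in mice (chr1:194621239-194643587, plus strand). It stood at 76.6, 70.0 and 63.8 CPM under DMSO, at 115.8, 115.2 and 136.1 CPM under C16, and at 58.1, 63.6 and 55.4 CPM under RE. All C16 libraries lay above, and all RE libraries below, the DMSO libraries, the latter by a narrow margin. C16 raised Cd34 (log2 change 0.84 ± 0.09, edgeR adjusted p = 2.55e-05), and for RE the log2 change was -0.20 ± 0.09 (edgeR adjusted p = 0.107). Counting ignored strand, and of its 2498 exon bases Cd34 shares 148 with the antisense gene Gm16897 and 878 with the antisense gene Gm53516. These genes had 591 and 574 fragments over the 18 libraries against 31444 for Cd34. How many fragments fell in the shared bases was not counted, so the effect on the Cd34 level is not known.

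Slamf1, the CD150 receptor used to sort long-term stem cells (chr1:171594700-171628752, plus strand), was scarce in AE9a cells. It stood at 1.69, 0.698 and 0.967 CPM under DMSO, at 0.250, 0.434 and 0.103 under C16, and at 1.37, 1.41 and 0.842 under RE. C16 libraries lay below all DMSO libraries, and RE libraries overlapped them. C16 lowered Slamf1 by a log2 change of -1.94 ± 0.49 (edgeR adjusted p = 0.00665) on 18 fragments over 3 libraries, and by -1.59 ± 0.48 (edgeR adjusted p = 0.0161) without the library labelled AE9a C16 replicate 3. In the same comparison 6 of 10 megakaryocyte markers fell and 1 rose (median log2 change -1.96). Of 7 tested endothelial markers, 5 fell and 0 rose (median -1.65). Of all tested genes, 33.2% were lower and 33.1% higher. The summed level of the 10 megakaryocyte markers was higher under C16, at 459.0, 585.7 and 587.0 CPM against 453.7, 424.5 and 342.4 CPM under DMSO. Without the library labelled AE9a C16 replicate 3, the counts were 6 lower and 1 higher for megakaryocyte markers, and 5 lower and 1 higher for endothelial markers. The part of these markers in the Slamf1 and Esam values was not tested. Esam, an adhesion molecule shared by stem cells, endothelium and platelets (chr9:37439385-37449615, plus strand), stood at 1.58, 1.69 and 1.32 CPM under DMSO, at 1.10, 0.907 and 0 under C16, and at 1.98, 1.41 and 1.58 under RE. The value of 0 belongs to the library labelled AE9a C16 replicate 3, where a count of 0 allows up to 0.154 CPM. For Esam under C16 the log2 change was -1.13 ± 0.60 (edgeR adjusted p = 0.126), and -0.60 ± 0.24 (edgeR adjusted p = 0.0523) without that library.

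The other genes of the set did not pass the test under either compound in AE9a cells. Procr, the endothelial protein C receptor (chr2:155592159-155597391, plus strand), stood at 3.32, 5.04 and 3.11 CPM under DMSO, at 3.05, 3.51 and 2.46 under C16, and at 4.56, 5.88 and 3.05 under RE. Fgd5, a guanine nucleotide exchange factor for CDC42 used as a stem cell reporter gene (chr6:91955809-92052986, plus strand), stood at 1.02, 1.03 and 0.967 CPM under DMSO, at 0.799, 0.907 and 0.0513 under C16, and at 1.04, 0.639 and 0.789 under RE. The lowest Fgd5 value was again that of the library labelled AE9a C16 replicate 3. Ly6a, which encodes the stem cell antigen Sca-1 (chr15:74866726-74869880, minus strand), stood at 149.4, 120.0 and 66.8 CPM under DMSO, at 158.9, 162.6 and 24.7 under C16, and at 108.0, 86.9 and 44.1 under RE. Replicate 3 was the lowest for Ly6a in each AE9a group, and the 3 groups overlapped.

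Under C16 in AE9a cells, 3 of the 10 genes rose and 1 fell, while 66.3% of the 14704 genes tested passed the same threshold (33.1% higher, 33.2% lower), so a share of 4 in 10 is below that of all genes. The median log2 change of the 10 was 0.20, against 0.0027 over all genes tested. Under RE, 0 rose and 3 fell, where 29.0% of all tested genes passed (12.2% higher, 16.8% lower), and the median was -0.36 against -0.0081. Fitted together with the more variable WT libraries, the calls of Mecom and Hlf under RE (edgeR adjusted p = 0.0971 and 0.0640) and of Slamf1 under C16 (edgeR adjusted p = 0.408) were lost, at the same direction.

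Set directly against RE, C16 left 5 genes higher and 1 lower, where 74.6% of all tested genes differed (37.5% higher, 37.2% lower). Mecom was 6.28-fold higher under C16 than under RE (log2 2.65 ± 0.42), Hlf 5.0-fold (2.32 ± 0.19), Cd27 4.17-fold (2.06 ± 0.10) and Cd34 2.06-fold (1.04 ± 0.09), with edgeR adjusted p between 1.92e-07 and 2.87e-04. Prdm16 was higher under C16 by log2 0.85 ± 0.33 (edgeR adjusted p = 0.0388), a call that was lost on leaving out any of 4 single libraries (AE9a C16 replicate 1 or 2, or AE9a RE replicate 2 or 3; edgeR adjusted p = 0.0692 to 0.130). Slamf1 was lower by log2 -2.13 ± 0.49 (edgeR adjusted p = 0.00315). With replicate number as a block, Procr was also lower under C16, by log2 -0.58 ± 0.15 (edgeR adjusted p = 0.00793), against an edgeR adjusted p of 0.0799 without it. Whether replicate numbers pair the AE9a libraries is not established (see the check below). Without the library labelled AE9a C16 replicate 3, Esam was lower (log2 -0.73 ± 0.24, edgeR adjusted p = 0.0207) and Ly6a higher (log2 1.01 ± 0.35, edgeR adjusted p = 0.0247) under C16.

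**Figure D2:**
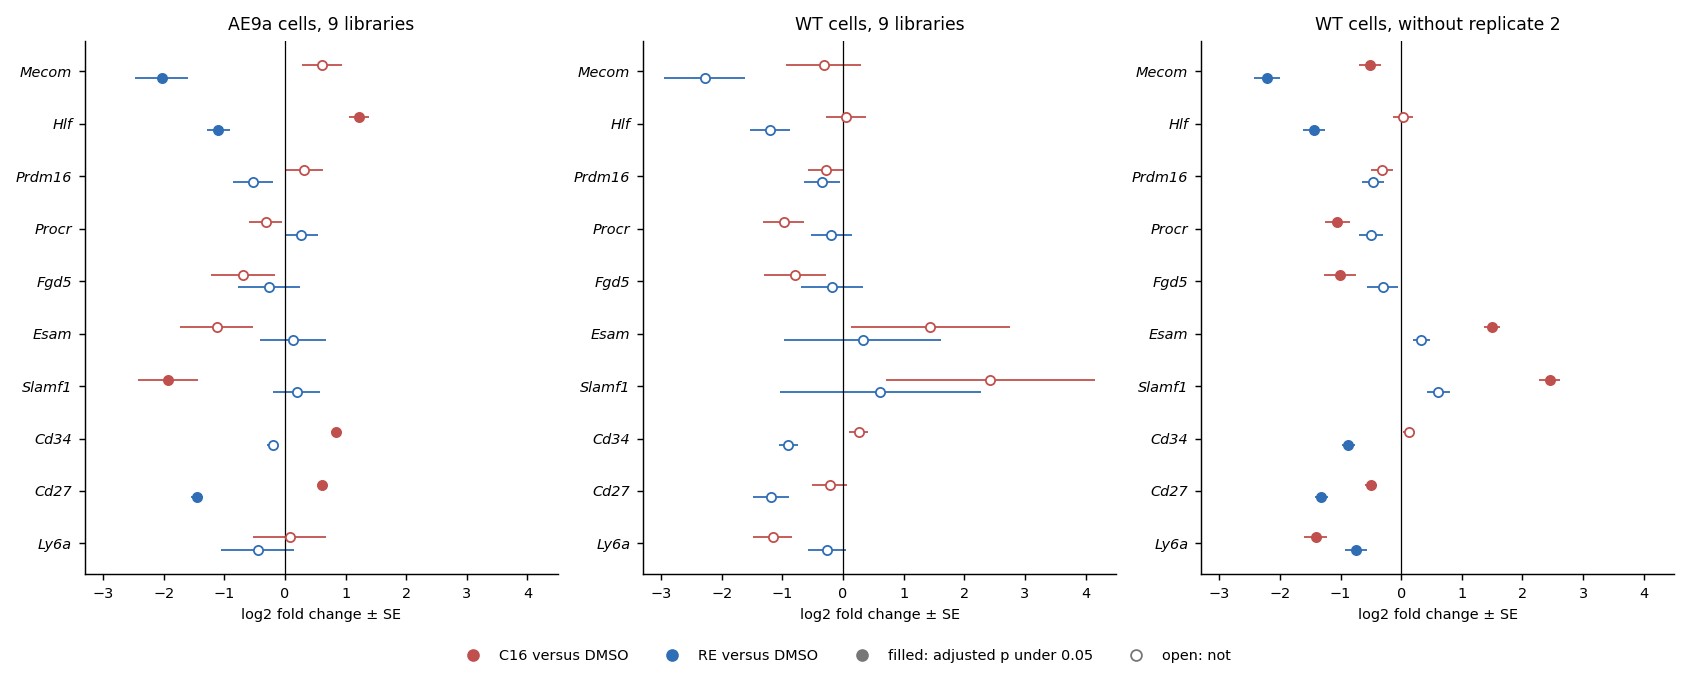
Fitted log2 fold change against DMSO (horizontal axis, bars ± SE) of each gene (vertical axis) under C16 and under RE, in 9 AE9a libraries, in 9 WT libraries and in WT cells without replicate 2, with filled points where the edgeR adjusted p was under 0.05. Mecom, Hlf and Cd27 lie left of 0 under RE in each panel, and the bars of Esam and Slamf1 in WT cells shorten when replicate 2 is left out.

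Other genes tied to the same stem cell state were counted from lists. Of 18 tested transcription regulators of stem cells (a list that includes Gata2, Tal1, Lmo2 and Erg), 5 rose and 8 fell under C16 in AE9a cells, with a median log2 change of 0.12. Gata2, a master regulator of stem cell and mast cell genes, fell by 2.49 on the log2 scale, from 680.6 to 117.8 CPM, Gfi1b by 1.70 and Tal1 by 1.40. Of 14 tested surface and signalling genes, 1 rose and 9 fell (median -0.88), among them the angiopoietin receptor Tek (-2.78), the integrin Itga2b (-2.15) and Kit (-1.92). Of 10 tested genes linked to quiescence, 0 rose and 7 fell (median -0.65), with Pdzk1ip1 at -3.34 and Txnip, an inhibitor of thioredoxin, at -2.65. Each of these named changes passed edgeR's test. Without the library labelled AE9a C16 replicate 3, the counts became 9 higher and 7 lower among 18 regulators 1 higher and 8 lower among 14 surface genes, and 1 higher and 7 lower among 11 tested quiescence genes.

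RE changed fewer of these genes than C16 did, as over all tested genes (29.0% against 66.3%). Among the 18 regulators 2 rose and 6 fell (median log2 change -0.20), including Gfi1b (-0.69), Lmo2 (-0.56) and Erg (-0.45), which all work in the stem cell transcription network. Of the 14 surface genes 3 rose and 1 fell (median 0.0021), with the netrin receptor Neo1 up by 1.63, Kit up by 0.56 and the drug exporter Abcg2 down at -0.70. Of 10 quiescence genes 1 rose (Egr1, 0.87) and 1 fell (Ifitm1, -0.50).

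Markers of committed progenitors and of mast cells moved beside the 10 genes in AE9a cells. Summed over 14 progenitor markers, which include the granule genes Mpo and Elane, the level was 2898 to 3151 CPM under DMSO, 7454 to 9462 CPM under C16 and 1662 to 1883 CPM under RE, and all 14 had fragments in all 18 libraries. Under C16, 8 of the 14 rose and 2 fell (7 and 2 without the library labelled AE9a C16 replicate 3), and under RE 1 rose and 11 fell. Cd27, Hlf and Cd34 followed the same order of groups (C16 highest, then DMSO, then RE) as this sum, without overlap. By group mean alone, Mecom, Prdm16 and Ly6a followed it too. Procr, Fgd5, Esam and Slamf1 did not, and had their lowest AE9a mean under C16. Summed over 10 mast cell markers, the level was 10116 to 13760 CPM under DMSO, 225.8 to 2044 CPM under C16 and 16707 to 19071 CPM under RE, with all 10 detected in all AE9a libraries. The part of either population in the changes of the 10 genes was not tested. Markers of other cells were lower: summed levels in AE9a and WT libraries were 72.9 to 129.7 and 151.6 to 313.9 CPM for 10 endothelial genes, 14.1 to 53.1 and 53.9 to 100.6 CPM for 10 genes of T and NK cells, and 7.47 to 15.2 and 22.4 to 40.2 CPM for 8 stromal genes. The endothelial gene Cldn5, the T cell gene Cd3e and the stromal gene Dcn were at 0 in 13, 14 and 10 of the 18 libraries. Other genes of these lists were present in all groups, with group means of 49.2 to 264.4 CPM for Pecam1, 13 to 81.5 CPM for Nkg7 and 6.5 to 29.9 CPM for Pdgfrb.

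In WT cells no gene of the set passed the test against DMSO when all libraries were used. For C16, 0 of 10 passed, where 3.10% of 15046 tested genes did (0.957% higher, 2.15% lower); 2 of the 10 had an unadjusted p under 0.05 in edgeR, and DESeq2 called 1, Ly6a (and 12.3% of all tested genes). For RE, 0 of 10 passed, where 0.0266% of tested genes did; 4 had an unadjusted p under 0.05 in edgeR, and DESeq2 called 2, Cd34 and Cd27 (and 0.498% of all tested genes). The share of all tested genes with an unadjusted p under 0.05 was not counted, so these 2 and 4 genes have no background beside them. The biological coefficient of variation was 0.329 in WT cells and 0.103 in AE9a cells. Replicate 2 stood apart in the WT libraries, and without its 3 libraries 2 genes rose and 5 fell under C16 (41.7% of all tested genes passed) and 0 rose and 5 fell under RE (8.02%).

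The genes that RE lowered in AE9a cells were also below DMSO in every WT RE library. Mecom stood at 5.31, 1.63 and 5.81 CPM under DMSO and at 1.09, 0.187 and 1.28 CPM under RE in WT cells. The groups did not overlap, and replicate 2 was the lowest in each. The log2 change was -2.28 ± 0.66 (edgeR adjusted p = 0.799) with all libraries, -2.28 ± 0.35 (edgeR adjusted p = 0.0489) with replicate number as a block, and -2.22 ± 0.21 (edgeR adjusted p = 0.00132) without replicate 2. Hlf stood at 10.5, 15.1 and 11.3 CPM under DMSO, at 9.06, 14.8 and 12.4 under C16, and at 4.07, 7.54 and 3.94 under RE. The RE libraries were below all others, and replicate 2 was the highest in each group. For Hlf under RE the log2 change was -1.21 ± 0.34 (edgeR adjusted p = 0.775), -1.25 ± 0.17 (edgeR adjusted p = 0.0372) with the block, and -1.44 ± 0.18 (edgeR adjusted p = 0.00377) without replicate 2.

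Cd34 stood at 104.6, 88.2 and 115.6 CPM under DMSO in WT cells, at 115.5, 118.8 and 116.8 under C16, and at 51.9, 42.8 and 67.3 under RE. RE libraries lay far below the rest, with a log2 change of -0.90 ± 0.15 (edgeR adjusted p = 0.238), which passed with the block (-0.91 ± 0.12, edgeR adjusted p = 0.0333) and without replicate 2 (-0.88 ± 0.11, edgeR adjusted p = 0.00306). Cd27 stood at 18.1, 8.26 and 17.7 CPM under DMSO, at 12.2, 11.7 and 12.2 under C16, and at 6.94, 4.61 and 7.32 under RE. Its RE libraries were the lowest, and DMSO replicate 2 lay below the C16 libraries while the other DMSO libraries lay above them. The log2 change under RE was -1.19 ± 0.30 (edgeR adjusted p = 0.621), -1.16 ± 0.22 (edgeR adjusted p = 0.0732) with the block, where it did not pass either, and -1.32 ± 0.11 (edgeR adjusted p = 9.10e-04) without replicate 2. Mecom, Hlf, Cd34 and Cd27 were the 4 of 10 genes whose WT RE and DMSO libraries did not overlap, all of them lower, where 8.48% of all tested genes were lower without overlap.

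Slamf1 and Esam split the WT libraries by replicate number more than by treatment. Slamf1 stood at 11, 0.337 and 11.1 CPM under DMSO, at 58.1, 0.146 and 58.1 CPM under C16, and at 13, 0.498 and 20.6 CPM under RE. Replicate 2 was below all AE9a DMSO libraries under each treatment, and in replicates 1 and 3 the C16 libraries were the highest of the series. Esam stood at 15, 1.35 and 12 CPM under DMSO, at 35.2, 0.878 and 37.9 CPM under C16, and at 15, 1.37 and 18.7 CPM under RE, with the same split. For C16 the log2 change of Slamf1 was 2.43 ± 1.72 (edgeR adjusted p = 0.442), 2.28 ± 0.38 (edgeR adjusted p = 0.00820) with the block, and 2.45 ± 0.17 (edgeR adjusted p = 1.33e-05) without replicate 2. That of Esam was 1.44 ± 1.31 (edgeR adjusted p = 0.556), 1.19 ± 0.33 (edgeR adjusted p = 0.0373) and 1.49 ± 0.13 (edgeR adjusted p = 5.29e-05).

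Megakaryocyte markers, which include the platelet chemokine Pf4 and glycoprotein genes, moved beside Slamf1 and Esam in WT cells. Summed over 10 markers, they stood at 2205, 2415 and 1922 CPM in WT DMSO replicates 1 to 3, at 9352, 900.4 and 10547 CPM under C16, and at 3803, 3016 and 3814 CPM under RE. The C16 libraries of replicates 1 and 3 were the highest and that of replicate 2 the lowest of the WT libraries, as for Slamf1. Without replicate 2, 10 of 10 markers rose under C16 (median log2 change 2.34) and 10 of 10 under RE (0.76). Mpig6b was at 0 in WT DMSO replicate 2, and no other marker was at 0 in a WT library. In AE9a libraries the sum was 342.4 to 453.7 CPM under DMSO, 459.0 to 587.0 CPM under C16 and 420.7 to 621.3 CPM under RE. Ppbp and Mpig6b were at 0 in the library labelled AE9a C16 replicate 3. Within AE9a cells 6 of the 10 markers fell and 1 rose under C16 (median log2 change -1.96), and 9 were lower and 1 higher under C16 than under RE (median -2.60). Their part in the Slamf1 and Esam values was not tested. The plot of these levels against the marker sums shows WT replicate 2 apart under DMSO and RE, with marker sums near those of the other WT libraries and Slamf1 and Esam near the AE9a levels. The sums do not stand for each marker, since abundant genes weigh most in them. Gene by gene, 2 of the 10 markers were lower in AE9a than in WT libraries without overlap under DMSO. Under RE 2 of the 10 were as well, where 50.6% of all tested genes did not overlap in either direction.

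**Figure D3:**
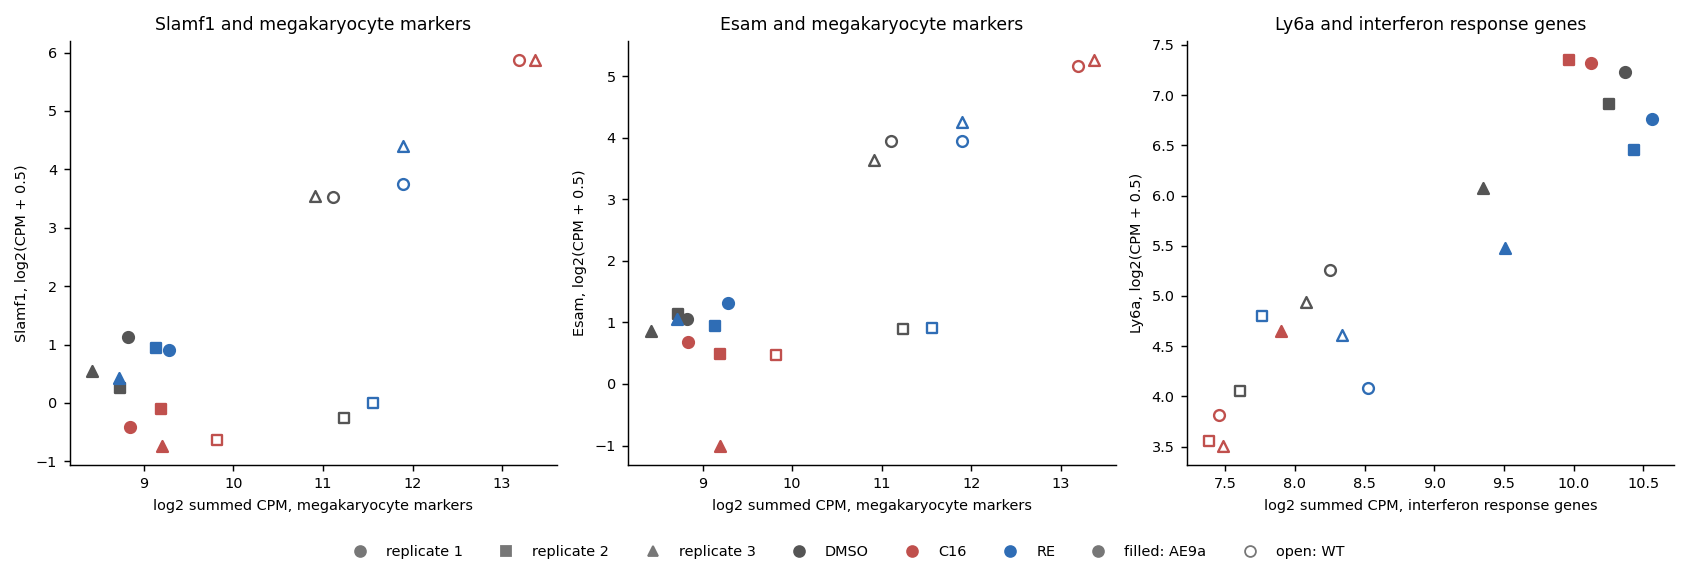
Levels of Slamf1, Esam and Ly6a on the log2(CPM + 0.5) scale (vertical axes) against the log2 summed CPM of 10 megakaryocyte markers or 14 interferon response genes (horizontal axes) in the 18 libraries, with colour for treatment, shape for replicate number and filled symbols for AE9a. The WT C16 libraries of replicates 1 and 3 lie at the upper right for Slamf1 and Esam, and the library labelled AE9a C16 replicate 3 lies among the WT libraries for Ly6a.

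C16 libraries of WT cells held less Procr and Ly6a than DMSO libraries, as group means. Procr stood at 16, 8.15 and 18.1 CPM under DMSO, at 7.13, 4.63 and 8.65 under C16, and at 14.6, 12.1 and 9.32 under RE. Its C16 and DMSO libraries overlapped only through DMSO replicate 2. The log2 change under C16 was -0.98 ± 0.34 (edgeR adjusted p = 0.140), -0.96 ± 0.28 (edgeR adjusted p = 0.0426) with the block, and -1.05 ± 0.20 (edgeR adjusted p = 0.00328) without replicate 2. Ly6a stood at 37.7, 16.1 and 30.1 CPM under DMSO, at 13.6, 11.3 and 10.9 under C16, and at 16.4, 27.4 and 23.9 under RE. Its C16 libraries lay below all other WT libraries, and 18.8% of all tested genes were lower without overlap under C16 than under DMSO. The log2 change of Ly6a under C16 was -1.16 ± 0.32 (edgeR adjusted p = 0.0889), -1.14 ± 0.33 (edgeR adjusted p = 0.0416) with the block, and -1.41 ± 0.19 (edgeR adjusted p = 4.93e-04) without replicate 2.

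In WT cells the libraries of Prdm16 and of Fgd5 overlapped between all treatments, and those of Mecom between C16 and DMSO. Mecom stood at 4.02, 2.29 and 3.43 CPM under C16, within the range of its DMSO libraries. Prdm16 stood at 6.58, 3.43 and 5.65 CPM under DMSO, at 4.79, 2.88 and 4.64 under C16, and at 4.88, 3.30 and 3.94 under RE, with replicate 2 lowest in each group. Fgd5 stood at 2.31, 0.731 and 2.80 CPM under DMSO, at 1.02, 0.780 and 1.42 under C16, and at 2.07, 0.934 and 2.05 under RE. Fgd5 also had its lowest value of each group in replicate 2. Without replicate 2, Mecom (-0.52 ± 0.18), Fgd5 (-1.01 ± 0.27) and Cd27 (-0.50 ± 0.10) passed edgeR's test as lower under C16, with adjusted p of 0.0470, 0.0155 and 0.00405, and Ly6a (-0.74 ± 0.18, adjusted p = 0.0438) as lower under RE.

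Between the compounds in WT cells, Hlf and Cd34 were higher under C16 than under RE and 0 of the 10 were lower, where 11.9% of all tested genes differed (5.40% higher, 6.49% lower). Cd34 was 2.23-fold higher (log2 1.16 ± 0.15, edgeR adjusted p = 0.00871), and Hlf 2.38-fold (1.25 ± 0.34, edgeR adjusted p = 0.0495). The Hlf call was lost without any of 5 of the 6 libraries (edgeR adjusted p = 0.0653 to 0.148; only without WT RE replicate 2 was it kept). With the block, 5 genes were higher under C16 (Mecom, Hlf, Slamf1, Cd34 and Cd27), where 34.2% of tested genes differed. Without replicate 2, 6 were higher and 1 lower (Ly6a, log2 -0.67 ± 0.20, edgeR adjusted p = 0.0232), where 44.3% differed.

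Of the stem cell genes outside the set, edgeR called 0 of 18 transcription regulators and 0 of 16 surface genes in WT cells for either compound. At an unadjusted p under 0.05 there were 2 of each list for C16, and 3 regulators and 1 surface gene for RE, and DESeq2 called 2 regulators for RE and 0 otherwise. The share of all tested genes at that unadjusted threshold was not counted. Without replicate 2, 11 of 18 transcription regulators rose and 1 fell under C16 (median log2 change 0.41), 9 of 16 surface genes rose and 1 fell (0.70), and 3 of 12 quiescence genes rose and 4 fell. Under RE, 0 rose and 5 fell among the regulators, and 3 rose and 2 fell among the surface genes. Progenitor markers fell in 12 of 14 cases under C16 and in 9 of 14 under RE, and their sum was 5514 to 7845 CPM in the replicate 2 libraries against 1544 to 2813 CPM in the other WT libraries.

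The second question was how AE9a cells differed from WT cells at each treatment. The AE9a and WT counts came as separate tables, and genotype and any batch that runs with it cannot be told apart. Under DMSO, Procr, Mecom, Hlf, Cd27 and Cd34 were lower in AE9a cells and Ly6a was higher: 5 of 10 lower and 1 higher, where 13.8% of 15809 tested genes were lower and 12.9% higher (26.7% in all). The median log2 difference of the 10 was -1.02, against -0.054 over all tested genes.

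Procr differed most among the lower genes that passed, at 0.278 of its WT level (14.1 ± 5.23 CPM in WT and 3.82 ± 1.06 CPM in AE9a cells, SD, n = 3; log2 -1.85 ± 0.33, edgeR adjusted p = 9.44e-04). Mecom stood at 0.337 of its WT level (log2 -1.57 ± 0.53, edgeR adjusted p = 0.0400), although its libraries overlapped through WT replicate 2. Hlf stood at 0.460 (log2 -1.12 ± 0.28, edgeR adjusted p = 0.00861), Cd27 at 0.568 (-0.82 ± 0.22, edgeR adjusted p = 0.0133) and Cd34 at 0.691 (-0.53 ± 0.13, edgeR adjusted p = 0.00683). Libraries did not overlap for Procr, Hlf and Cd34. The share of all tested genes without overlap under DMSO is not given, so this describes each gene and has no background beside it. In another comparison, that of the genotypes under RE, the share was 50.6%. The Mecom call was lost on leaving out any of 5 single libraries (WT DMSO replicate 1 or 3, or any AE9a DMSO library; edgeR adjusted p = 0.0609 to 0.141), and the Cd27 call without WT DMSO replicate 1 or 3 (0.0709 and 0.0670).

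Ly6a ran the other way, at 112.1 ± 41.9 CPM in AE9a and 28 ± 11 CPM in WT DMSO cells, 4.07-fold higher (log2 2.02 ± 0.56, edgeR adjusted p = 0.0157). All AE9a DMSO libraries were above all WT DMSO libraries. The call was lost without WT DMSO replicate 2 (edgeR adjusted p = 0.0584) or AE9a DMSO replicate 1 (0.0555). Interferon response genes moved beside it: 12 of 14 were higher in AE9a DMSO cells and 0 lower (median log2 difference 3.04), among them Oas2 (3.57) and Oas3 (3.27), which encode sensors of viral RNA. Their summed level was 1324, 1222 and 653.3 CPM in AE9a DMSO replicates 1 to 3, 1119, 998.8 and 239.0 CPM under C16, and 1515, 1385 and 727.7 CPM under RE, against 167.2 to 367.3 CPM in WT libraries. Replicate 3 was the lowest in each AE9a group, as for Ly6a, and all 14 genes had fragments in all libraries. Their part in the Ly6a values was not tested.

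Prdm16, Fgd5, Esam and Slamf1 did not pass the test under DMSO, with log2 differences of -0.82 ± 0.33, -0.92 ± 0.57, -2.59 ± 1.17 and -2.73 ± 1.42 and edgeR adjusted p of 0.0791, 0.256, 0.116 and 0.174. Without WT replicate 2, all 4 were called lower in AE9a cells, and 9 of the 10 genes were lower and 1 higher, where 50.7% of all tested genes differed. Slamf1 then differed by log2 -3.31 ± 0.30 (edgeR adjusted p = 1.66e-06) and Esam by -3.09 ± 0.36 (1.53e-05). Of the megakaryocyte markers, 10 of 10 were lower beside them (median -3.55), against 3 of 10 with all libraries (median -3.03). In the same libraries 8 of 18 stem cell regulators outside the set were lower and 3 higher, and 11 of 16 surface genes lower and 2 higher. With all libraries these counts were 4 lower and 2 higher, and 4 lower and 2 higher. Among the regulators Meis1 (-1.69), Mllt3 (-1.64) and Erg (-0.83) were lower, and among the surface genes Vwf (-3.28) and Cd9 (-1.97) were lower and Kit higher (3.28) in AE9a DMSO cells.

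Under C16 the genotypes differed in fewer of the 10 genes. Procr (log2 -1.12 ± 0.33, edgeR adjusted p = 0.0211), Esam (-5.11 ± 1.31, 0.0123) and Slamf1 (-7.06 ± 1.75, 0.0109) were lower in AE9a cells and Ly6a higher (3.32 ± 0.60, 0.00338), where 35.0% of all tested genes differed (16.1% higher, 18.9% lower). Hlf, Cd34 and Cd27, which were lower in AE9a cells under DMSO, stood at 1.08, 1.08 and 1.05 times their WT level under C16, with edgeR adjusted p of 0.767, 0.522 and 0.827. Runx1t1, the check of the genotype label, averaged 2.21 CPM in the AE9a C16 libraries against 40.0 CPM in the AE9a DMSO libraries. Whether the AE9a C16 libraries hold the same cells as the AE9a DMSO libraries was not tested. Megakaryocyte markers were lower beside Esam and Slamf1, in 10 of 10 cases (median log2 difference -7.10), and their part was not tested. Without WT replicate 2, Esam differed by -5.64 ± 0.39 and Slamf1 by -7.61 ± 0.33 (edgeR adjusted p = 4.97e-08 and 9.23e-10), Mecom was also called lower (-0.75 ± 0.29, edgeR adjusted p = 0.0350), and 65.3% of all tested genes differed. The Procr call was lost without any of 4 single libraries (WT C16 replicate 1 or 3, or the libraries labelled AE9a C16 replicate 1 or 3; edgeR adjusted p = 0.0566 to 0.105). Esam and Slamf1 overlapped between the genotypes through WT replicate 2. In a limma-voom fit with replicate number as a random effect, Ly6a kept its call (adjusted p = 0.0130), and Procr (0.0540), Esam (0.131) and Slamf1 (0.298) lost theirs.

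Under RE, 4 genes were lower and 1 higher in AE9a cells, where 35.8% of all tested genes differed. Cd27 (log2 -1.04 ± 0.23, edgeR adjusted p = 0.00312) and Procr (-1.34 ± 0.33, 0.00586) kept their calls in each fit without 1 library. Hlf (-0.98 ± 0.29, edgeR adjusted p = 0.0176), Prdm16 (-0.97 ± 0.34, 0.0374) and Ly6a (1.88 ± 0.56, 0.0181) did not: Hlf lost its call without AE9a RE replicate 3 or WT RE replicate 2 (0.0849 and 0.114), Prdm16 without any of 4 libraries (0.0640 to 0.152) and Ly6a without AE9a RE replicate 1 or WT RE replicate 1 (0.0634 and 0.0685). Libraries of the genotypes did not overlap for any of these 5 genes, as for 50.6% of all tested genes. Without WT replicate 2, 8 of the 10 were lower and 1 higher, where 54.6% of tested genes differed.

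**Figure D4:**
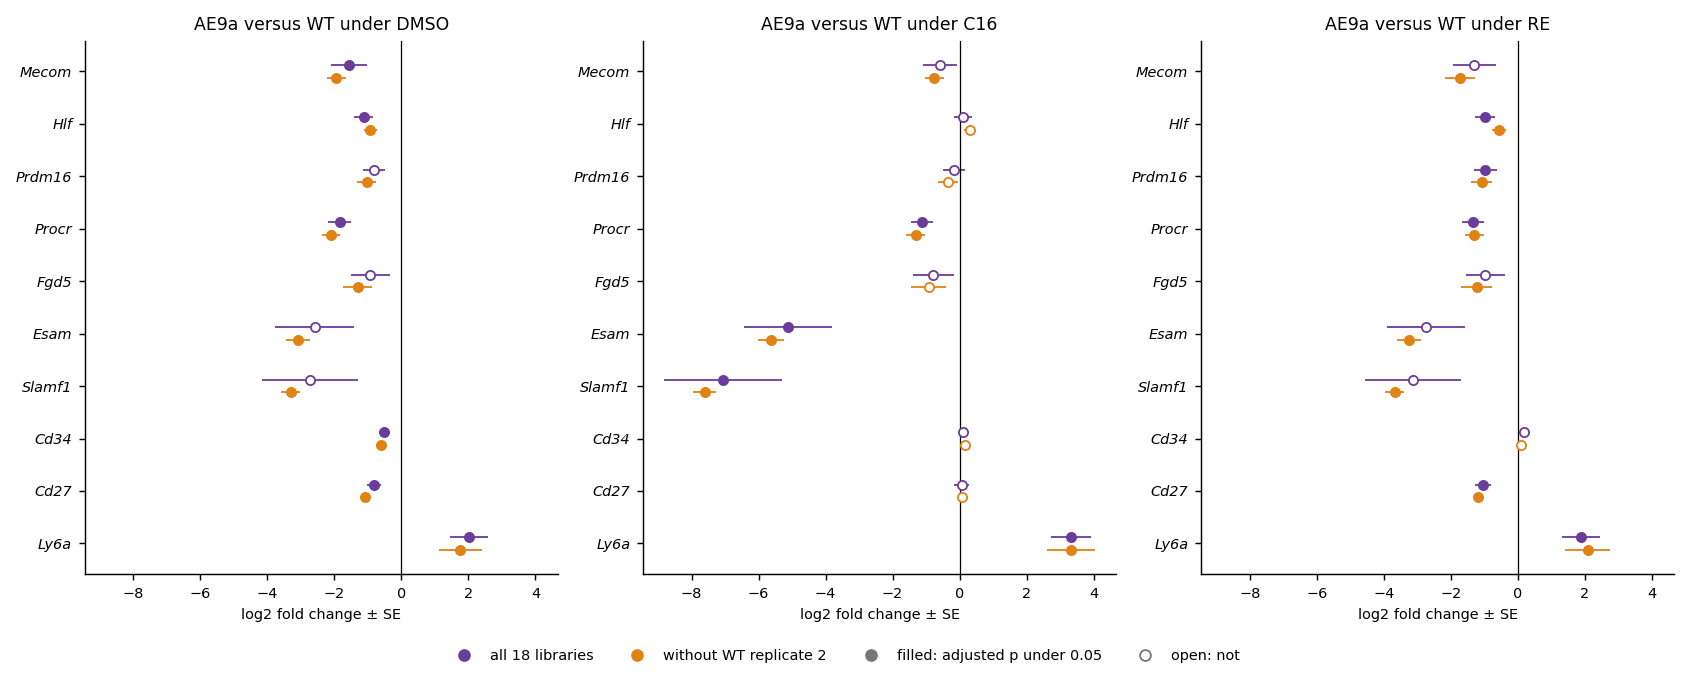
Fitted log2 difference between AE9a and WT cells (horizontal axis, bars ± SE) of each gene (vertical axis) under DMSO, C16 and RE, with all 18 libraries and without WT replicate 2, and filled points where the edgeR adjusted p was under 0.05. Procr lies left of 0 and Ly6a right of 0 under each treatment, and Hlf, Cd34 and Cd27 lie near 0 under C16.

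The third question was whether the genotypes answered a compound differently, tested as the difference between their log2 changes. For C16, Cd34 was the 1 gene of 10 that passed, with a rise of 0.84 ± 0.09 in AE9a and 0.25 ± 0.15 in WT cells and a difference of 0.64 ± 0.18 (edgeR adjusted p = 0.0329), where 13.1% of all tested genes passed (4.78% higher, 8.29% lower). This call was lost in 8 of 12 fits without 1 library (edgeR adjusted p = 0.05 to 0.083). Hlf followed with a difference of 1.23 ± 0.39 (edgeR adjusted p = 0.0526) and Cd27 with 0.88 ± 0.31 (0.0739).

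The number of genes that differed in their C16 response changed with WT replicate 2. Without it 6 passed (49.8% of all tested genes did): Mecom (1.2 ± 0.41), Hlf (1.25 ± 0.26), Cd34 (0.76 ± 0.15) and Cd27 (1.16 ± 0.12) changed further upward in AE9a cells, and Esam (-2.56 ± 0.58) and Slamf1 (-4.30 ± 0.54) further downward. With the block 5 passed (36.8% of tested genes), the same genes apart from Mecom. For Slamf1, C16 went with a lower level in AE9a cells and, in WT replicates 1 and 3, with a higher one. For RE, 0 of the 10 passed and 0% of all tested genes did in edgeR; 1 of the 10, Cd34, had an unadjusted p under 0.05, and DESeq2 called 34 genes in all but 0 of the 10. Here too the share of all tested genes at the unadjusted threshold was not counted. Without WT replicate 2, Cd34 passed at the margin (0.71 ± 0.16, edgeR adjusted p = 0.0499), where 1.25% of tested genes did. The log2 changes of Mecom under RE, -2.04 in AE9a and -2.28 in WT cells, and of Hlf, -1.10 and -1.21, differed by 0.27 ± 0.88 and 0.14 ± 0.41, which does not show that the genotypes responded alike.

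Across the 18 libraries, the genes whose pattern lay closest to each of the 10 were found by the root mean square difference of log2(CPM + 0.5), with each gene centred on its own mean. Mecom lay closest to Rhobtb3 (0.359), Cd27 (0.375) and Eya1 (0.403), and Cd27 to the transcription factor genes Tcf4 (0.258) and Sox4 (0.271) and to Aff3 (0.284). Hlf lay closest to Dnajc6 (0.335), Ssbp2 (0.337) and Tcf4 (0.344). Near Cd34 lay Lmo2 (0.217) and Pus10 (0.221), and Slamf1 lay closest to Gucy1a1 (0.296), a subunit of soluble guanylate cyclase, Gm10419 (0.338) and Peg10 (0.349). Esam lay closest to Gm46056 (0.308), Cc2d2b (0.327) and Robo3 (0.332), and Procr to Gm48745 (0.272), Gm33097 (0.292) and Gm38171 (0.292). Ly6a lay closest to Slfn5 (0.454), Phf11b (0.458) and Ifit3 (0.461), the last an interferon response gene. These distances are descriptions, since the libraries share genotype, treatment and the replicate 2 difference. Ly6a had no gene as near as the other 9 had, and Prdm16 (Ryr1, 0.197; Lck, 0.232; Cd48, 0.242) and Fgd5 (P2ry14, 0.201; Smarcd3, 0.263; Zfp983, 0.268) had the nearest, at low counts and with a small range of their own.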

How the data were processed

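Per the file headers, the authors' deposited counts are whole numbers of read-pair fragments over the exons of each gene, from primary alignments, without regard to strand, made with featureCounts 1.6.2. Per the submitters' processing notes HISAT2 2.1.0 and featureCounts 2.0.3 were used on GRCm39, besides fastp 0.23.2 and DESeq2; which featureCounts version was used is not known. The number of columns without a sample was 0. The 10 members and the companion lists were chosen with earlier results of these data known. Other genes named were, of each list, at most 3 per comparison with the largest change among those with adjusted p under 0.05 and at least 5 CPM, 3 nearest patterns per member (1 gene is not reported here), Runx1t1 and Kit; single examples added in list descriptions and the markers at 0 were chosen after their values were seen.

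Contrasts of compounds were fitted on the 9 libraries of the genotype concerned, and those of genotypes on all 18, after filterByExpr (14704, 15046 and 15809 genes), TMM scaling and edgeR 4.0.16 quasi-likelihood tests, with Benjamini-Hochberg adjustment over all tested genes and a threshold of 0.05, in R 4.3.3. All 10 members passed the filter in each fit. CPM are fragments scaled to the library total. The procedure was tested on simulated data. Alternatives were DESeq2 1.42.0, RLE scaling, no filter, a fit of all 18 libraries, replicate blocks, limma 3.58.1 voom with a random block (added after seeing the data), and leaving out libraries. Promoter windows came from RefSeq (GRCm38.p6).

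Whether replicate numbers pair samples was checked by correlating each gene's distance from its group mean between libraries of the same number. This gave 0.56 to 0.86 in WT cells, 0.29 to 0.43 between AE9a DMSO and RE, 0.13 in each pair of AE9a C16 and RE, and 0.06, 0.31 and 0.20 between AE9a DMSO and C16. All but the last were above a threshold of 0.1 throughout. Libraries of different numbers were not correlated, so the threshold has nothing beside it and does not establish pairing. In WT cells replicate 2 standing apart can by itself give such values, and the labels do not say what a number shares.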

Additional observations from a re-analysis of the deposited data

Results flagged for a closer look

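The C16 response of Cd34 differed between the genotypes in the test of the difference itself: its log2 change against DMSO was 0.84 ± 0.09 in AE9a and 0.25 ± 0.15 in WT cells, a difference of 0.64 ± 0.18 (edgeR adjusted p = 0.0329). In each genotype the lowest C16 library lay close to or above the highest DMSO library, at 115.2 against 76.6 CPM in AE9a cells and at 115.5 against 115.6 CPM in WT cells. The WT DMSO level, 102.8 ± 13.7 CPM (SD, n = 3), was higher than the AE9a DMSO level, 70.1 ± 6.39 CPM, and the C16 levels were 117.0 ± 1.66 and 122.4 ± 11.9 CPM. The difference was 0.76 ± 0.15 (edgeR adjusted p = 0.00117) without WT replicate 2 and 0.56 ± 0.19 (edgeR adjusted p = 0.0830) without the library labelled AE9a C16 replicate 3.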

How the results depend on the processing

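Counts of called genes among the 10 changed mainly in comparisons with WT libraries. Shares in brackets are those of all tested genes called in the same fit. With DESeq2 they were 1 for C16 (12.3%) and 2 for RE (0.498%) in WT cells, 5 for C16 against RE in WT cells (21.1%) and 2 for the genotype difference in the C16 response (19.5%). Without a filter on low counts, the latter 2 were 1 (3.47%) and 0 (5.32%). In the fit of all 18 libraries they were 1 for RE in AE9a cells (3.16%, against 29.0%), 1 for C16 (19.0%) and 1 for RE (0.183%) in WT cells, and 4 for C16 against RE in WT cells (28.4%). With the replicate block, or pairing by number, they were 4 for C16 (24.2%), 3 for RE (0.512%) and 5 for C16 against RE (34.2%) in WT cells, and 5 for the genotype difference in the C16 response (36.8%); it changed no other call than those printed above, and such a block could not be fitted between genotypes. As a random effect (limma-voom) it gave 1 for the genotypes under C16 (33.7%). Without WT replicate 2 they were 7 for C16 (41.7%), 5 for RE (8.02%) and 7 for C16 against RE (44.3%) in WT cells, 10 and 9 for the genotypes under DMSO and RE (50.7% and 54.6%), and 6 and 1 for the genotype differences in the C16 and RE responses (49.8% and 1.25%); without the library labelled AE9a C16 replicate 3 as well, 7 differed in the C16 response (49.6%). The cause was not tested.

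Leaving out 1 library in turn gave 4 to 5 called genes for C16, 3 to 3 for RE and 5 to 8 for C16 against RE in AE9a cells; 0 to 1, 0 to 0 and 1 to 2 in WT cells; 4 to 6, 3 to 4 and 3 to 7 for the genotypes under DMSO, C16 and RE; and 0 to 3 and 0 to 0 for the differences in the C16 and RE responses. With no library left out, the shares of all tested genes called were 66.3%, 29.0% and 74.6% for these comparisons in AE9a cells. They were 3.10%, 0.0266% and 11.9% in WT cells, and 26.7%, 35.0% and 35.8% for the genotypes. For the differences in the C16 and RE responses they were 13.1% and 0%. Calls over all tested genes moved as well in the fits without 1 library. For C16 against RE in AE9a cells they were 5166 higher and 5481 lower of 15004 without AE9a C16 replicate 1. For RE in AE9a cells they were 901 higher and 1450 lower of 15004 without AE9a DMSO replicate 1. Without AE9a DMSO replicate 2 they were 1602 higher and 2250 lower of 14981. For C16 in WT cells they were 0 of 15478 without WT DMSO replicate 1. Without WT C16 replicate 2 they were 672 higher and 657 lower of 15495. Of the single-gene values under the fits without 1 library, 728 kept their side of the threshold, 14 newly passed it and 38 no longer did. Under the other settings 523 kept it, 66 newly passed and 11 no longer did. In all of these fits 0 called values changed direction. The lowest group totals of the 10 genes were 18 fragments for Slamf1, 40 for Fgd5 and 45 for Esam under C16 and 20 for Mecom under RE, all in AE9a cells, and 45 for Mecom under RE in WT cells.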
